A study of Mus musculus with 12 samples.

Results

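Left ventricles of UNX/DOCA mice fed the histone deacetylase inhibitor ITF2357 were compared with left ventricles of Sham mice, 4 animals a side. Both sets were chosen by their titles in the series and make up 8 of its 12 libraries, and the other 4 come from UNX/DOCA mice on normal chow. The UNX/DOCA ITF2357 mice had UNX/DOCA surgery (removal of a kidney with deoxycorticosterone acetate, a mineralocorticoid, used here to induce diastolic dysfunction) and, 4 weeks later, began 4 weeks on chow with ITF2357. The Sham vehicle mice had a sham operation and normal chow over the same times. The sources used here do not give strain, age, sex or drug dose, and a treatment field numbers the drug differently from animal to animal where all 4 titles name ITF2357. Poly(A) RNA came from about 10 mg of tissue per heart. Surgery and drug both differ between the groups, no Sham animal received ITF2357, and their contributions cannot be told apart in this comparison.

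Histone deacetylases (HDACs) remove acetyl groups from histone tails and from many other proteins, and zinc-dependent HDACs are the targets of hydroxamate inhibitors such as ITF2357 (givinostat). Mineralocorticoid excess with loss of a kidney gives volume and pressure load, and such hearts are known for re-expression of fetal genes, for fibrosis and for stiff, slowly relaxing muscle. Comparing drug-fed diseased hearts with Sham hearts asks how the treated ventricle stands against the sham-operated level, gene by gene.

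Total counts were 25.5 to 32.8 M in the ITF2357 libraries and 25.3 to 34.9 M in the Sham libraries, and mitochondrially encoded genes held 26.2% ± 1.495 and 25.5% ± 0.727 of them (SD, n = 4; two-sided exact permutation p = 0.4, smallest possible 0.0286). Levels below are CPM, counts as a share of library size after TMM scaling of the 8 libraries, and differences are log2 fold changes of ITF2357 over Sham with their standard error. On the first principal component, which held 32.9% of the variance, ITF2357 replicate 2 lay on the side of the Sham libraries, and Sham replicate 4 lay near 0. Myl2, the ventricular myosin light chain, stood at 6654 CPM in the ITF2357 hearts and 5848 CPM in the Sham hearts on average, while Myl7, the atrial light chain, and Sln, the atrial calcium pump inhibitor sarcolipin, had only 35 and 94 reads over the 8 libraries together. Myh6, the main myosin heavy chain of both chambers in the adult mouse, stood at 22859.5, 21042, 22146 and 21714 CPM in the ITF2357 hearts and 25104, 19482, 27559 and 25177 CPM in the Sham hearts. The atrial markers that could be tested summed to 690 to 1602 CPM in the ITF2357 hearts, Nppa included, and 588 to 806 CPM in the Sham hearts.

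Of 16270 genes tested, 475 had a Benjamini-Hochberg adjusted p under 0.05 in edgeR's quasi-likelihood test and are called here, which is 2.92% of the genes. The 248 genes called higher with ITF2357 are 1.52% and the 227 called lower are 1.4% of all genes tested. These shares are the base rate for the edgeR calls counted within each gene list below. For the other 2 methods the base is higher. Of the same 16270 genes, DESeq2 called 1474 (737 higher and 737 lower) and limma-voom 1151 (614 and 537). More calls by them within a list are therefore no added evidence in themselves. The absolute log2 fold change of a called gene had a median of 0.57 and ran from 0.24 to 3.41, and 56 of the higher and 48 of the lower genes differed at least 2-fold. Upper-quartile scaling called 361 genes higher and 149 lower, and scaling by library totals 172 higher and 76 lower, so the balance between directions rests on the scaling. An unadjusted p under 0.05 was found for 3741 genes, 12.1% of all genes being higher and 10.9% lower by that measure. These are the base rate for the counts at that cut within each list below. Single libraries moved the count strongly. Leaving out ITF2357 replicate 1, 2, 3 or 4 kept 367, 253, 72 and 133 of the 475 calls, and leaving out Sham replicate 1, 2, 3 or 4 kept 47, 19, 309 and 30. For this reason the highest adjusted p with a library left out is given beside many of the genes below. Where it is not given, the call should not be taken as stable. Of the 100 named genes compared across settings, 21 lost their call in a fit of all 12 libraries, which adds the UNX/DOCA vehicle hearts to the estimate of spread: Rsrp1, Rgs11, Il33, Ankrd37, Lbp, Slc9a3, Lrrc52, Atcay, Slc4a1, Ccdc69, Ttn, Col5a1, Col6a2, Thy1, Birc5, Pdk2, Aldoa, Gpx3, Rps16, Tsc22d3 and Tuba1a. Their adjusted p there ran from 0.0516 for Slc9a3 to 0.342 for Ttn. Nppa, Mybpc3 and Acot1 passed only there of these 2 fits (adjusted p = 0.0269, 0.0480 and 0.0384).

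**Figure D1:**
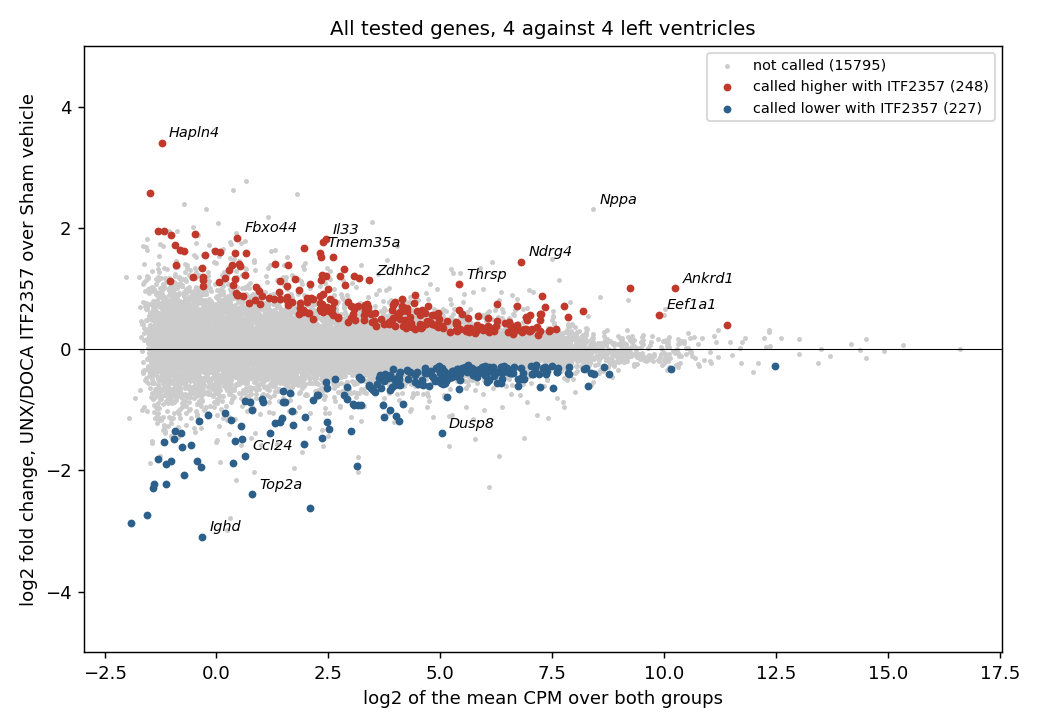
Log2 fold change of ITF2357 over Sham (vertical axis) against the log2 of the mean CPM over both groups (horizontal axis), 1 point per tested gene, with called genes in colour. The 248 higher and 227 lower calls run from low to high levels, and Nppa stands high without being called.

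A set of 17 genes kept their call whichever of the 8 libraries was left out, 12 higher and 5 lower. Ndrg4, a cytoplasmic protein of the NDRG family that is abundant in heart and brain, had 139, 153, 193 and 169 CPM in the ITF2357 hearts and 46.1, 69.1, 65.4 and 60.2 CPM in the Sham hearts. Every treated heart was above every Sham heart by a wide gap, with a log2 fold change of 1.44 ± 0.14 and an adjusted p of 0.00614 in edgeR's quasi-likelihood test. Zdhhc2, a palmitoyltransferase, had 15.4, 13.4, 15.3 and 14.1 CPM in the ITF2357 hearts and 6.14, 7.73, 5.79 and 6.78 CPM in the Sham hearts (log2 fold change 1.13 ± 0.11). Here too no Sham heart came near the treated range. Fbxo44, the substrate-binding F-box subunit of a ubiquitin ligase, had 2.65, 1.91, 2.12 and 1.98 CPM in the ITF2357 hearts and 0.493, 0.612, 0.709 and 0.599 CPM in the Sham hearts (log2 fold change 1.84 ± 0.20). Tmem35a, a chaperone of nicotinic acetylcholine receptors, had 9.58, 6.87, 6.67 and 6.93 CPM in the ITF2357 hearts and 2.12, 3.2, 2.13 and 2.43 CPM in the Sham hearts (log2 fold change 1.59 ± 0.18), and ITF2357 replicate 1 was the highest library. Thrsp, a thyroid hormone responsive protein tied to lipid synthesis, had 55.7, 62.9, 47.8 and 64.5 CPM in the ITF2357 hearts and 22.6, 32.8, 28.9 and 25.8 CPM in the Sham hearts (log2 fold change 1.07 ± 0.13).

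Hapln4, a link protein of hyaluronan matrices, had the largest fold change of any called gene, 3.41 on the log2 scale, but at very low levels of 0.884, 0.908, 0.784 and 0.578 CPM in the ITF2357 hearts and 0.0379, 0.0834, 0.0394 and 0.12 CPM in the Sham hearts. Its single-library counts ran from 1 to 30, so the fitted fold change depends on the prior count. Adap1, a GTPase-activating protein for Arf6, rose by 1.14 ± 0.14, Tspan12, a tetraspanin of Norrin and Frizzled signalling, by 0.52 ± 0.07, and the arginine- and serine-rich protein gene Rsrp1 by 0.72 ± 0.09 on the log2 scale. Eef1a1, the translation elongation factor, had 1105, 1168, 1151 and 1079 CPM in the ITF2357 hearts and 782, 727, 807 and 729 CPM in the Sham hearts (log2 fold change 0.56 ± 0.06). The row for its pseudogene Gm13456 rose too, by 0.68 ± 0.07, and reads of near-identical copies may have been divided between these rows. The last of the 12 carries only the identifier ENSMUSG00000121382. Among the 5 lower genes, the smooth muscle cytoskeletal protein gene Smtn had 94.9, 94.4, 102 and 99.4 CPM in the ITF2357 hearts and 134, 145, 134 and 136 CPM in the Sham hearts, a narrow spread within each group and a log2 fold change of -0.49 ± 0.06. Micall1, a protein of endocytic recycling, fell by 0.66 ± 0.08, Dcakd, named for its dephospho-CoA kinase domain, fell by 0.62 ± 0.07, and the eosinophil chemokine gene Ccl24 fell by 1.76 ± 0.23 on the log2 scale. Ighd, the constant region of immunoglobulin D, is described with the B cell genes. Over the 17 genes the highest adjusted p with a library left out ran from 0.0329 to 0.0486.

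The 15 genes with the largest rise, among called genes of at least 1 CPM whose groups did not overlap, included Il33, Dkk3, Cysltr1, Lbp and Mdk. Il33, an alarmin cytokine, had 4.24, 11.7, 7.74 and 9.99 CPM in the ITF2357 hearts and 2.5, 1.97, 2.99 and 2.15 CPM in the Sham hearts. ITF2357 replicate 1 was closest to the Sham level, and the log2 fold change was 1.81 ± 0.29 (adjusted p = 0.0233). Dkk3, a secreted glycoprotein of the Dickkopf family, had 6.41, 11.2, 8.69 and 6.07 CPM in the ITF2357 hearts and 2.46, 1.75, 1.81 and 3.55 CPM in the Sham hearts (log2 fold change 1.77 ± 0.27, adjusted p = 0.0159). Cysltr1, a receptor for cysteinyl leukotrienes, had 4.53, 9.23, 7.12 and 9.08 CPM in the ITF2357 hearts and 2.73, 3.17, 2.09 and 2.35 CPM in the Sham hearts (log2 fold change 1.53 ± 0.23, adjusted p = 0.0159). In both genes the lowest treated heart stayed above the highest Sham heart. Lbp, which binds bacterial lipopolysaccharide, had 5.08, 10.4, 9.25 and 11.1 CPM in the ITF2357 hearts and 3.83, 2.89, 2.72 and 3.07 CPM in the Sham hearts (log2 fold change 1.52 ± 0.23). Mdk, the heparin-binding growth factor midkine, had 1.48 ± 0.315 against 0.479 ± 0.0953 CPM (mean and SD, n = 4 each; log2 fold change 1.63 ± 0.25).

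Rgs11, a regulator of G protein signalling, had the largest change of the 15, 1.90 ± 0.37, at 1.69, 1.12, 1.05 and 0.619 CPM in the ITF2357 hearts and 0.379, 0.167, 0.276 and 0.399 CPM in the Sham hearts. Ankrd37, an ankyrin repeat protein induced by hypoxia, had 5.12, 8.08, 7.45 and 2.89 CPM in the ITF2357 hearts and 1.97, 2.59, 1.81 and 0.998 CPM in the Sham hearts, with ITF2357 replicate 4 nearest to the Sham hearts. Slc9a3, the sodium-proton exchanger NHE3, had 2.39, 2.48, 2.06 and 1.24 CPM in the ITF2357 hearts and 0.606, 0.501, 0.787 and 1.24 CPM in the Sham hearts, and ITF2357 replicate 4 lay next to Sham replicate 4. Rims2, of synaptic vesicle release, rose by 1.58, Ddn, dendrin, by 1.60, the PDZ protein gene Gipc2 by 1.56 and the potassium channel subunit gene Lrrc52 by 1.40. Apart from Fbxo44, Tmem35a and Ndrg4, each of the 15 lost its call without at least 1 Sham library. Their highest adjusted p with a library left out ran from 0.0678 for Cysltr1 (without Sham replicate 4) to 0.142 for Lrrc52 (without Sham replicate 2).

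Among the 15 largest falls, Dusp8, a phosphatase of MAP kinases, was the best expressed, with 21.1, 13.7, 20.5 and 16.8 CPM in the ITF2357 hearts and 56.2, 46.7, 50.9 and 35.2 CPM in the Sham hearts. Its groups were well apart (log2 fold change -1.39 ± 0.17, adjusted p = 0.0112, 0.0539 without Sham replicate 2). Apln, the ligand apelin, had 3.46, 4.39, 2.09 and 3.18 CPM in the ITF2357 hearts and 7.62, 11.5, 5.55 and 8.02 CPM in the Sham hearts (log2 fold change -1.32 ± 0.26). Rtn4r, the Nogo receptor, had 6.45, 2.27, 3.43 and 2.48 CPM in the ITF2357 hearts and 14.7, 16.5, 8.5 and 15.8 CPM in the Sham hearts, and ITF2357 replicate 1 and Sham replicate 3 came close to each other. Retnla, a secreted product of alternatively activated macrophages, had 1.73, 1.27, 1.41 and 0.66 CPM in the ITF2357 hearts and 4.17, 3.45, 3.54 and 2.11 CPM in the Sham hearts (log2 fold change -1.38 ± 0.29). Atcay, caytaxin, had 0.773, 1.09, 1.27 and 1.65 CPM in the ITF2357 hearts and 14.97, 4.62, 4.92 and 4.99 CPM in the Sham hearts. Its Sham mean rests on replicate 1, which was far above the other 3, and the log2 fold change was -2.62 ± 0.46. Btbd11 fell by 1.19, Mrgprh, a Mas-related receptor, by 1.2, Rtl3, derived from a retrotransposon gag gene, by 1.26, Ccdc69 by 1.35, Zp2, a zona pellucida glycoprotein, by 1.58 and Shisa6, an AMPA receptor partner, by 1.94 on the log2 scale. With a library left out, the highest adjusted p of these 11 genes ran from 0.0539 for Dusp8 to 0.122 for Ccdc69, both without Sham replicate 2. Atcay alone had its highest value, 0.0823, without ITF2357 replicate 3.

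**Figure D2:**
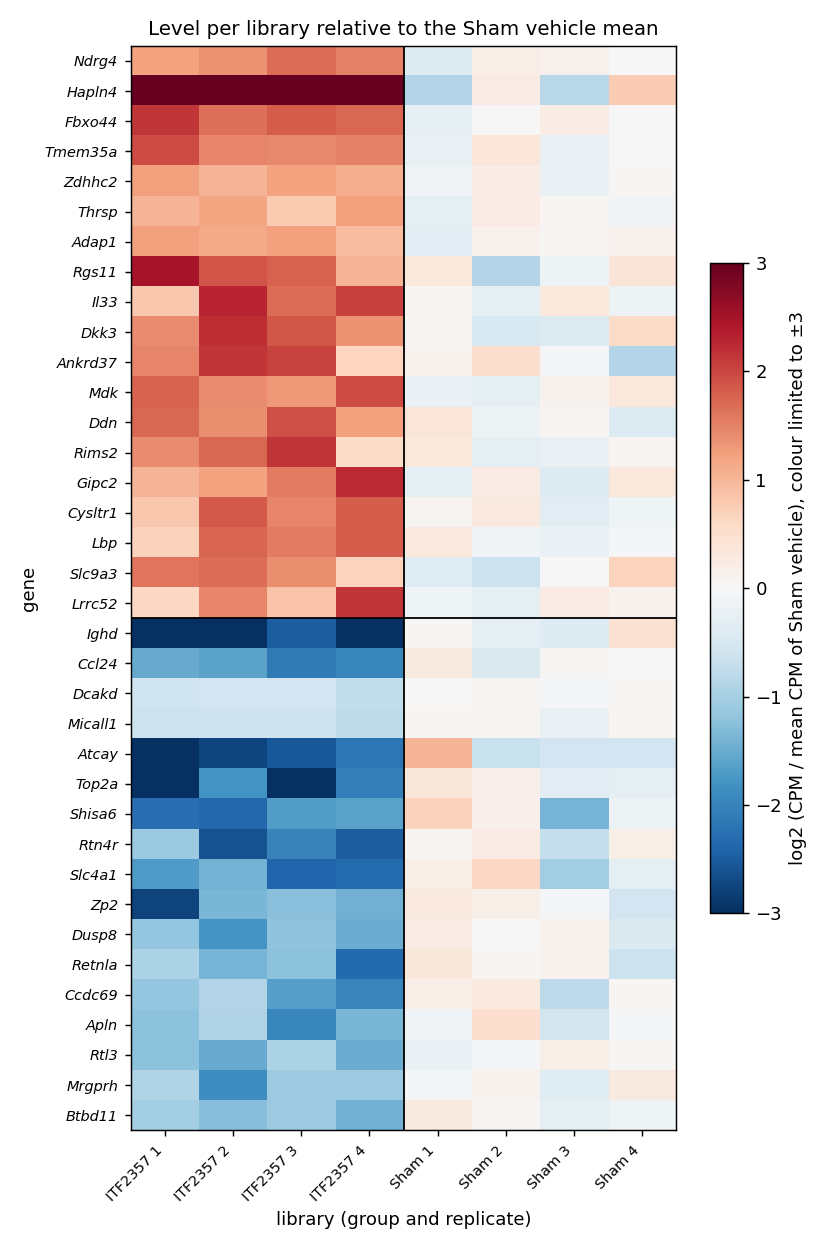
Heatmap of log2 CPM relative to the Sham mean for each of the 8 libraries (columns) and a set of the named genes (vertical axis), red above and blue below the Sham mean. Ndrg4, Fbxo44 and Tmem35a are high in all 4 treated hearts, with Tmem35a highest in ITF2357 replicate 1. Rgs11, Il33, Ankrd37 and Atcay differ more among replicates of a group.

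Cell cycle genes were lower in the treated hearts. Of 27 tested genes of S phase and mitosis, 4 fell (14.8%, against 1.4% of all genes), 0 rose (0 higher at an unadjusted p under 0.05), and 26 had a log2 fold change below 0, with a median of -0.61. At an unadjusted p under 0.05, 14 of the 27 were lower (10.9% of all genes), and DESeq2 called 5 and limma-voom 6. Upstream sequences are shown for the 4 genes that passed the threshold in edgeR. Each run is the 150 bases before the RefSeq start in GRCm38.p6, 5′ to 3′ on the gene's strand. Capitals mark CCAAT or its reverse complement ATTGG (the CCAAT box bound by NF-Y), and TTTGAA or its reverse complement TTCAAA (the core of the cell cycle homology region).
Top2a, chr11:99024190-99024339, minus strand: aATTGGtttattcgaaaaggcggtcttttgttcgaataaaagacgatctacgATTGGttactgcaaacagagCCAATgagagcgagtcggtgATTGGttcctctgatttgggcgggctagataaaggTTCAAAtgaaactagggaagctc
Ccnb2, chr9:70421555-70421704, minus strand: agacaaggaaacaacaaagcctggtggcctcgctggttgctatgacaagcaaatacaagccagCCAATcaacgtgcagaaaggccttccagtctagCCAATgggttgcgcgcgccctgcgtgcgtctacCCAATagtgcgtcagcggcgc
Hmmr, chr11:40733438-40733587, minus strand: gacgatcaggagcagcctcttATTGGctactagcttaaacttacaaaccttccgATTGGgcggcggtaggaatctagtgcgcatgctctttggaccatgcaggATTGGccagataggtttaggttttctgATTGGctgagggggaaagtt
Birc5, chr11:117849087-117849236, plus strand: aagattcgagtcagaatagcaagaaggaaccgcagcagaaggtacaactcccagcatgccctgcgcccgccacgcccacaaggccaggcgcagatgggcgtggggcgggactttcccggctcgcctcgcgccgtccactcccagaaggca

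The Top2a run holds 4 CCAAT matches on either strand and 1 TTTGAA match. Hmmr holds 4 CCAAT matches, Ccnb2 holds 3, and Birc5 holds 0, and these 3 genes hold 0 TTTGAA matches. Of all 32851 promoter windows of this length, 24.5% hold at least 1 CCAAT match, 1.2% at least 3 and 9.07% at least 1 TTTGAA match. Of 23 windows for the 22 tested cell cycle genes found in the table, 82.6% hold at least 1 CCAAT match, 17.4% at least 3 and 26.1% at least 1 TTTGAA match. These windows include those of the called genes. The matches describe the sequence and were not tested as binding sites.

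Top2a, the topoisomerase that untangles chromosomes before division, had 0.331, 0.847, 0.327 and 0.701 CPM in the ITF2357 hearts and 3.68, 3.25, 2.36 and 2.39 CPM in the Sham hearts. No treated heart reached 1 CPM and no Sham heart was below 2 CPM, with a log2 fold change of -2.39 ± 0.32 and an adjusted p of 0.0112 in edgeR's quasi-likelihood test. Ccnb2, a cyclin of mitotic entry, had 0.184, 0.242, 0.131 and 0.206 CPM in the ITF2357 hearts and 0.644, 0.807, 0.709 and 0.718 CPM in the Sham hearts (log2 fold change -1.89 ± 0.28, adjusted p = 0.0152). Hmmr, a spindle-associated hyaluronan receptor, had 0.184, 0.151, 0.0654 and 0.124 CPM in the ITF2357 hearts and 0.53, 0.64, 0.827 and 0.519 CPM in the Sham hearts (log2 fold change -2.23 ± 0.35, adjusted p = 0.0162). Birc5, survivin of the chromosomal passenger complex, had 0.147, 0.151, 0.00 and 0.206 CPM in the ITF2357 hearts and 0.796, 0.612, 0.472 and 0.599 CPM in the Sham hearts (log2 fold change -2.30 ± 0.51, adjusted p = 0.0438), or 0 to 22 counts per library. Among genes that did not pass, Mki67, the proliferation marker Ki-67, had 0.626, 1.82, 1.21 and 3.51 CPM in the ITF2357 hearts and 5.42, 7.37, 4.33 and 5.91 CPM in the Sham hearts (adjusted p = 0.0633), and the mitotic kinesin gene Kif11 had 0.606 ± 0.261 against 1.46 ± 0.115 CPM (adjusted p = 0.0517). All 4 treated hearts were below all 4 Sham hearts in 12 of the 27 genes (6.42% of all genes tested). Of the 27, 0 to 4 were called with a library left out. Top2a lost its call only without Sham replicate 2 (adjusted p = 0.0573), and Birc5 kept it only in 1 of the 8 fits (highest adjusted p 0.12). Without Sham replicate 2, 0 of the 27 were called, and without Sham replicate 4 Top2a alone was. Ccnb2 and Hmmr thus lost their calls in both of these fits.

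Of 8 tested B and plasma cell genes, 4 fell (50%, against 1.4% of all genes) and 0 rose, with a median of -1.67. DESeq2 called 2 of the 8 and limma-voom 5. Ighd had 0.147, 0.121, 0.261 and 0.124 CPM in the ITF2357 hearts and 1.48, 1.2, 1.1 and 2.00 CPM in the Sham hearts (log2 fold change -3.09 ± 0.33, adjusted p = 0.00614). Cd79b, part of the B cell receptor, had 0.221, 0.182, 0.196 and 0.33 CPM in the ITF2357 hearts and 0.909, 0.862, 0.709 and 1.44 CPM in the Sham hearts (log2 fold change -2.08 ± 0.32). The B cell surface gene Ms4a1, or CD20, had 0.0828 ± 0.0779 against 0.604 ± 0.138 CPM. Every treated heart was below every Sham heart in these 3 genes. Ighd alone was called without ITF2357 replicate 3 and without Sham replicate 1, 2 or 4. Cd79b and Ms4a1 lost their calls in each of these fits (adjusted p = 0.0671 and 0.0987 without Sham replicate 2). Over all fits with a library left out, 1 to 5 of the 8 were called. Ebf1, which stromal cells express too, stood at 16.3 against 14.7 CPM and carries most of the list's summed level, which overlapped between groups (18.95 to 28.99 against 20.3 to 29.3 CPM). In bulk tissue, fewer cells of a type and less RNA per cell cannot be told apart.

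Erythroid genes held 2 falls among 8 tested (25%, against 1.4% of all genes). Slc4a1, the band 3 anion exchanger of red cells, had 0.626, 0.756, 0.392 and 0.413 CPM in the ITF2357 hearts and 2.35, 3.12, 0.984 and 1.68 CPM in the Sham hearts (log2 fold change -1.89 ± 0.37, 0.105 as adjusted p without Sham replicate 2). The summed erythroid level of ITF2357 replicate 1, 605 CPM, was above every Sham library, while the other 3 treated hearts were at 259 to 310 CPM. Without ITF2357 replicate 1, the library with that high sum, 7 of the 8 erythroid genes were called lower. That fit called 372 genes lower over all genes, against 227 with all 8 libraries. Alas2, the heme synthesis enzyme of red cells, did not pass with all 8 libraries (23.4, 12.4, 12.5 and 14.3 CPM in the ITF2357 hearts and 28.2, 24.8, 28.2 and 24.4 CPM in the Sham hearts, adjusted p = 0.066). Neutrophil genes had a median of -1.17 with 0 of 10 called, and 22 macrophage and monocyte genes had a median of 0.04 with 0 called. At an unadjusted p under 0.05 these lists held 0 and 1 higher genes and 2 and 2 lower genes (12.1% and 10.9% of all genes). DESeq2 called 1 and 0 and limma-voom 0 and 0. Skeletal muscle genes held 2 falls among 7 tested (28.6%, against 1.4% of all genes). These were Casq1, the fast-muscle calsequestrin (8.51, 10.2, 12.2 and 8.34 CPM in the ITF2357 hearts and 26.9, 16.9, 18.6 and 16.3 CPM in the Sham hearts), and Myl1, a fast-muscle myosin light chain (6.22, 7.5, 6.27 and 4.54 CPM in the ITF2357 hearts and 11.97, 14.7, 9.49 and 10.6 CPM in the Sham hearts). Their adjusted p values were 0.0313 and 0.0318, or 0.074 and 0.101 without Sham replicate 2. The fast myosins Myh1, Myh2 and Myh4 had 1, 5 and 1 reads over the 8 libraries together, so the defining markers of skeletal fibres were near 0.

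In the list of natriuretic peptide and other fetal genes, 1 of 18 rose (5.56%, against 1.52% of all genes) and 0 fell. At an unadjusted p under 0.05, 5 were higher and 4 lower (12.1% and 10.9% of all genes). DESeq2 called 7 and limma-voom 5 (1474 and 1151 of all 16270 genes). Ankrd1, a stress-responsive titin-binding protein of cardiac muscle, had 1319, 1724, 2007 and 1420.3 CPM in the ITF2357 hearts and 630.1, 702, 1095 and 796 CPM in the Sham hearts. All treated hearts were above all Sham hearts, with a log2 fold change of 1.01 ± 0.19 and an adjusted p of 0.0389, or 0.118 without Sham replicate 2. Nppa, the atrial natriuretic peptide, had 212, 817, 826 and 390.0 CPM in the ITF2357 hearts and 77.5, 86.003, 148 and 142 CPM in the Sham hearts. The groups did not overlap, ITF2357 replicates 2 and 3 were far above replicates 1 and 4, and the difference of 2.31 ± 0.50 did not pass (adjusted p = 0.0588). Without ITF2357 replicate 1, its lowest treated heart, it passed (2.57, adjusted p = 0.0265), and it passed in the fit of all 12 libraries (adjusted p = 0.0269). Myh7, the slow fetal myosin, had 303, 591, 643 and 425 CPM in the ITF2357 hearts and 260.3, 203, 342 and 279.5 CPM in the Sham hearts with overlapping groups (0.85 ± 0.25, adjusted p = 0.1). It too passed without ITF2357 replicate 1, again the lowest treated heart (1.02, adjusted p = 0.0365). Nppb, the B-type natriuretic peptide, had 249.7, 216, 435 and 315 CPM in the ITF2357 hearts and 393, 299, 622 and 259 CPM in the Sham hearts (log2 fold change -0.37 ± 0.33, adjusted p = 0.536). Acta1, skeletal actin, spread widely within each group, at 367, 1328, 1398 and 657 CPM in the ITF2357 hearts and 556, 972, 1509 and 1714 CPM in the Sham hearts (adjusted p = 0.738).

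Of 22 adult sarcomere genes 1 fell (4.55%, against 1.4% of all genes), with 4 called by DESeq2 and 2 by limma-voom. This was Ttn, the giant spring protein titin that sets passive stiffness, with 4957, 5286, 5344 and 5072 CPM in the ITF2357 hearts and 6035, 6143, 6613 and 6368 CPM in the Sham hearts (log2 fold change -0.28 ± 0.06, adjusted p = 0.0381, 0.116 without Sham replicate 4, 0.342 in the fit of all 12 libraries). Mybpc3, the cardiac myosin-binding protein C, had 3210.4, 3763, 4009 and 3126 CPM in the ITF2357 hearts and 4485, 4239, 5016 and 4492 CPM in the Sham hearts and did not pass (-0.37 ± 0.09, adjusted p = 0.056). Of 23 calcium handling genes 1 rose and 1 fell (4.35% each, against 1.52% and 1.4% of all genes). At an unadjusted p under 0.05, 3 were higher and 5 lower (12.1% and 10.9% of all genes). In 5 genes every treated heart was lower than any Sham heart (6.42% of all genes). DESeq2 called 6 of the 23 and limma-voom 3. Itpr2, an inositol trisphosphate receptor, fell from a Sham level of 39.1, 41.1, 41.4 and 38.03 CPM to 34.6, 27.8, 28.9 and 29.8 CPM (log2 fold change -0.40 ± 0.08, 0.11 as adjusted p without Sham replicate 2). Fkbp1b, which stabilises the ryanodine receptor, rose at low levels of 1.14, 0.696, 1.05 and 0.784 CPM in the ITF2357 hearts and 0.265, 0.25, 0.157 and 0.519 CPM in the Sham hearts (log2 fold change 1.62 ± 0.35). Its call was lost with any library other than ITF2357 replicate 2 left out, as 0 calcium handling genes were called higher in those fits. The ryanodine receptor gene Ryr2 had 1622, 1659, 1446 and 1619.5 CPM in the ITF2357 hearts and 1836, 1939, 1851 and 2109.8 CPM in the Sham hearts and did not pass (adjusted p = 0.0524), though the groups did not overlap. Atp2a2, the calcium pump SERCA2 that drives relaxation, had 13439.6, 12621, 11885 and 12816 CPM in the ITF2357 hearts and 14321, 12345, 14551 and 13928 CPM in the Sham hearts (log2 fold change -0.12 ± 0.07, adjusted p = 0.331). Of 28 ion channel genes 0 were called (8 at an unadjusted p under 0.05, 2 higher and 6 lower, and 5 each by DESeq2 and by limma-voom). Nearest to the threshold were Kcnj3, a channel of acetylcholine-gated potassium current (38.1 ± 7.43 against 54.99 ± 2.39 CPM, adjusted p = 0.0553), and Abcc9, the sulfonylurea receptor of ATP-sensitive potassium channels (346 ± 50.4 against 444 ± 18.8 CPM, adjusted p = 0.066). Titin and Itpr2 lost their calls when a transcript length term was used (adjusted p = 0.0981 and 0.0568). That term was fitted to the same counts and also removes real differences that go with length.

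Fibrillar collagens were the matrix list with the lowest median, -0.44 over 8 tested genes. Of these, 7 were below 0 and 1 was called lower (12.5%, against 1.4% of all genes). Col5a1, a type V chain that helps nucleate collagen fibrils, had 22.6, 29.3, 25.1 and 21.9 CPM in the ITF2357 hearts and 32.96, 35.5, 36.97 and 35.1 CPM in the Sham hearts. Every treated heart was below every Sham heart (log2 fold change -0.51 ± 0.10, adjusted p = 0.0331), and the call was lost without ITF2357 replicate 3 or 4, without Sham replicate 1, 2 or 4 (at most 0.102) and in the fit of all 12 libraries (0.149). The main type I and III chains did not pass. Col1a1 had 32.004, 64.1, 38.3 and 41.6 CPM in the ITF2357 hearts and 63.4, 60.5, 50.004 and 65.5 CPM in the Sham hearts (log2 fold change -0.44 ± 0.20, adjusted p = 0.226), and ITF2357 replicate 2 lay within the Sham range. Col3a1 had 84.5, 143, 120.4 and 118 CPM in the ITF2357 hearts and 135, 178, 127 and 190.3 CPM in the Sham hearts (log2 fold change -0.43 ± 0.18, adjusted p = 0.198). Serpinh1, the collagen chaperone HSP47, was the only call of 25 collagen processing genes, with 121, 122, 126 and 102 CPM in the ITF2357 hearts and 193, 200.2, 135 and 199.6 CPM in the Sham hearts. Sham replicate 3 lay near the treated hearts, and the log2 fold change was -0.63 ± 0.13 (adjusted p = 0.0381, 0.11 without Sham replicate 2).

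Among 14 other collagens 1 fell and 1 rose (7.14% each, against 1.4% and 1.52% of all genes). Col6a2, a chain of the beaded type VI filament, fell, with 46.1, 51.1, 51.5 and 40.9 CPM in the ITF2357 hearts and 61.3, 66.2, 57.5 and 65.1 CPM in the Sham hearts (log2 fold change -0.40 ± 0.09, adjusted p = 0.0418, 0.121 without Sham replicate 2). Its partner chain Col6a1 had 48.2, 51.6, 51.4 and 47.4 CPM in the ITF2357 hearts and 63.4, 61.6, 53.4 and 62.96 CPM in the Sham hearts and did not pass (adjusted p = 0.0595). Col8a2, a short-chain collagen, rose at a low level, with 1.29, 0.635, 0.588 and 0.701 CPM in the ITF2357 hearts and 0.341, 0.195, 0.118 and 0.319 CPM in the Sham hearts (log2 fold change 1.71 ± 0.39), and kept its call in 0 of the 8 fits with a library left out. Fn1, fibronectin, had 39.5, 58.2, 40.6 and 38.7 CPM in the ITF2357 hearts and 43.6, 42.1, 39.3 and 52.1 CPM in the Sham hearts (log2 fold change 0.00 ± 0.14). Postn, the matricellular protein periostin of activated fibroblasts, had 33.8, 69.7, 58.9 and 36.8 CPM in the ITF2357 hearts and 27.8, 31.6, 29.8 and 65.1 CPM in the Sham hearts with Sham replicate 4 far above the other Sham hearts (adjusted p = 0.57). Calls were 0 of 21 in basement membrane, 0 of 16 in proteoglycans, 0 of 20 in elastic fibres, 0 of 23 in matricellular proteins, 0 of 23 in metalloproteinases and inhibitors, and 0 of 27 in TGF-beta ligands, receptors and targets. At an unadjusted p under 0.05, where 12.1% of all genes were higher, these 6 lists held 1, 6, 7, 3, 2 and 4 higher genes. They held 5, 1, 3, 1, 1 and 2 lower genes, where 10.9% of all genes were lower. DESeq2 called 3, 1, 3, 1, 1 and 0 genes of these lists, and limma-voom 3, 1, 1, 2, 0 and 0. Of 20 fibroblast markers, Thy1, a surface glycoprotein, rose (9.54, 8.11, 8.95 and 8.71 CPM in the ITF2357 hearts and 6.56, 6.06, 6.73 and 6.54 CPM in the Sham hearts, log2 fold change 0.45 ± 0.10, adjusted p = 0.0438, 0.135 without Sham replicate 2). The summed fibroblast marker level overlapped, at 1840 to 2325 against 1907 to 2129 CPM.

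Of 29 genes of glucose uptake and glycolysis 1 rose and 1 fell (3.45% each, against 1.52% and 1.4% of all genes), and DESeq2 called 4 and limma-voom 3. At an unadjusted p under 0.05, 3 of the 29 were higher and 9 lower, and 6 were lower without overlap (6.42% of all genes). Their summed level was 12572 to 13248 CPM in the ITF2357 hearts and 13477 to 14777 CPM in the Sham hearts, without overlap. Of 33 genes of fatty acid oxidation and PPAR targets 1 rose (3.03%, against 1.52% of all genes) and 0 fell. At an unadjusted p under 0.05, 8 of the 33 were higher and 3 lower, and DESeq2 called 8 and limma-voom 5. Fabp3, the heart fatty acid-binding protein, rose from 2250.0, 2231, 2563 and 2242 CPM in Sham to 2838, 3139.7, 2819 and 3496 CPM with ITF2357 (log2 fold change 0.40 ± 0.08, adjusted p = 0.0389, 0.12 without Sham replicate 4). Acot1, a cytosolic acyl-CoA thioesterase, had 14.4, 11.8, 9.44 and 18.7 CPM in the ITF2357 hearts and 3.94, 3.45, 8.5 and 4.99 CPM in the Sham hearts and came just short (log2 fold change 1.38 ± 0.31, adjusted p = 0.0502). Ppargc1a, the coactivator PGC-1alpha of mitochondrial gene expression, had 265, 214, 144 and 430.0 CPM in the ITF2357 hearts and 90.9, 82.9, 119 and 84.9 CPM in the Sham hearts (log2 fold change 1.48 ± 0.32, adjusted p = 0.056). Its treated hearts spread over a wide range, all above the Sham hearts. Pdk2, a kinase that switches off pyruvate dehydrogenase, fell, with 269.8, 271, 254 and 257 CPM in the ITF2357 hearts and 337, 319, 347 and 311 CPM in the Sham hearts (log2 fold change -0.32 ± 0.06, adjusted p = 0.0301, 0.093 without Sham replicate 1). Bcat2, the mitochondrial branched-chain aminotransferase, rose, with 194, 178, 191 and 199 CPM in the ITF2357 hearts and 143, 149, 167 and 160.1 CPM in the Sham hearts (log2 fold change 0.30 ± 0.07). Aldoa was called higher, but its row stood at only 4.48 ± 0.312 against 2.79 ± 0.248 CPM, low for this glycolytic enzyme, so its reads may have been counted elsewhere and the value is uncertain. Gpx3, the secreted glutathione peroxidase, was the only call of 20 NRF2 and antioxidant genes, with 287, 238, 275 and 294 CPM in the ITF2357 hearts and 171, 166, 199 and 226 CPM in the Sham hearts (log2 fold change 0.52 ± 0.11). Cidea, a lipid droplet protein, rose by 0.42 ± 0.09 on the log2 scale. Bcat2, Gpx3 and Cidea reached adjusted p values of 0.151, 0.114 and 0.133 without Sham replicate 2.

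Nuclear genes of the respiratory chain had a median of -0.09, with 26 of 36 below 0 and 0 called (11 lower and 0 higher at an unadjusted p under 0.05, 7 called by DESeq2 and 2 by limma-voom). Uqcrc1, a core subunit of complex III, had 940.5, 889, 922 and 1001 CPM in the ITF2357 hearts and 1102, 1083, 1152 and 1051 CPM in the Sham hearts (log2 fold change -0.23 ± 0.06, adjusted p = 0.0648). Sdha, the flavoprotein of complex II, had 1127, 1065, 1052 and 1240.5 CPM in the ITF2357 hearts and 1364, 1279, 1436 and 1289.9 CPM in the Sham hearts (log2 fold change -0.26 ± 0.07, adjusted p = 0.0677). In both genes all treated hearts were below all Sham hearts. The 13 mitochondrially encoded genes had a median of 0.12 and 0 calls, with 2 at an unadjusted p under 0.05 and 0 by DESeq2 or limma-voom. With a transcript length term, 5 of the 36 nuclear genes were called lower, Uqcrc1 among them (adjusted p = 0.0434).

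Cytosolic ribosomal protein genes stood slightly higher in the treated hearts. Of 54 tested, all had a log2 fold change above 0, the median was 0.25, 49 were higher at an unadjusted p under 0.05, and 7 were called, against 27 by DESeq2 and 31 by limma-voom. The 7 were Rps27a, Rpl28, Rpl22, Rpl36, Rps16, Rpl17 and Rps19. Rps27a had 142, 142, 144 and 158 CPM in the ITF2357 hearts and 111, 111, 123 and 122 CPM in the Sham hearts (log2 fold change 0.33 ± 0.07, adjusted p = 0.0378, 0.118 without Sham replicate 2), and Rpl22 had 111, 101, 116 and 115 CPM in the ITF2357 hearts and 87.6, 83.7, 94.7 and 85.9 CPM in the Sham hearts (0.33 ± 0.07). Groups did not overlap in 33 of the 54 (7.49% of all genes were higher without overlap), and 0 to 13 were called with a library left out. These genes have many processed pseudogenes that can share their reads. They also have short transcripts, and fold changes moved with transcript length. Genes under 500 bases had a median log2 fold change of 0.20 and genes of at least 8000 bases one of -0.06. Per library, the median deviation of genes under 1000 bases minus that of genes over 6000 bases was 0.06, -0.07, 0.10 and 0.29 in the ITF2357 hearts and -0.15, -0.09, 0.003 and -0.08 in the Sham hearts (two-sided exact permutation p = 0.0571). A length term per library was fitted to these same counts, so it also removes any real group difference that goes with length. A call lost with it therefore does not show that the difference came from length. After this term 0 of the 54 ribosomal genes were called, with a median of 0.17, and 404 of the 475 calls remained. Eef1a1 was still called with that term (log2 fold change 0.50, adjusted p = 0.0115), as was Ndrg4 (1.41, adjusted p = 0.00654), while Fabp3, Bcat2, Cidea and Thy1 were not (adjusted p = 0.0598, 0.0660, 0.0668 and 0.0605).

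**Figure D3:**
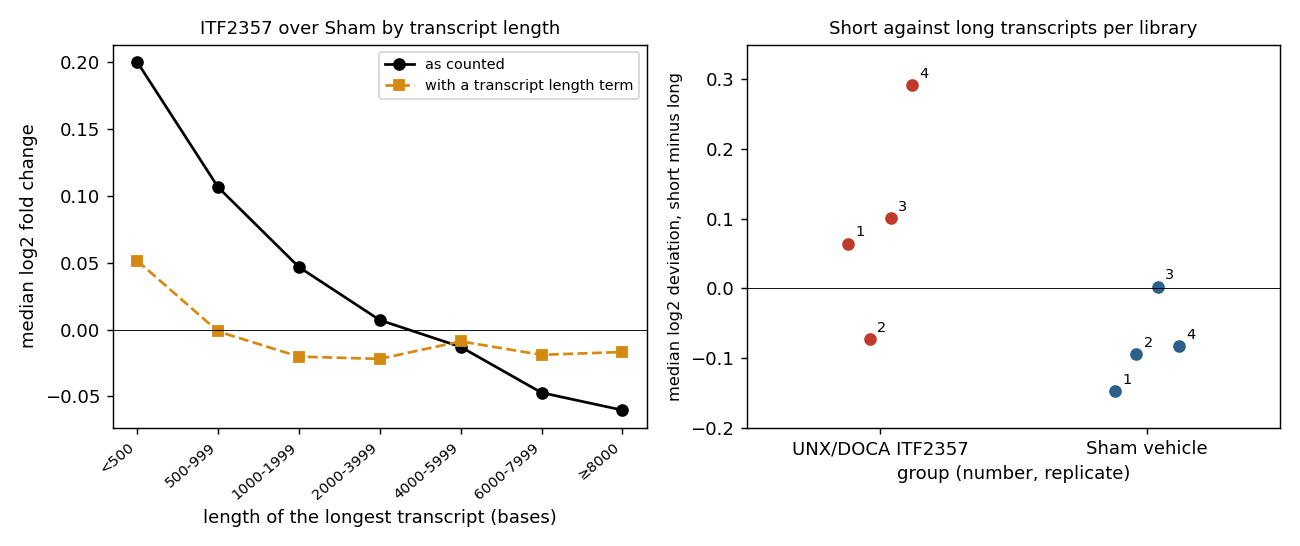
Left, median log2 fold change of ITF2357 over Sham (vertical axis) in bins of transcript length (horizontal axis), as counted and with a length term. The term was fitted to the same counts, so it brings these medians toward 0 by construction. Right, the median deviation of short minus long transcripts for each library (points, numbered by replicate), highest at 0.29 in ITF2357 replicate 4.

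The targets of the drug class were measured at the RNA level. Of 11 zinc-dependent HDAC genes 0 were called, with a median of -0.05 and 2 lower and 0 higher at an unadjusted p under 0.05, 1 called by DESeq2 and 0 by limma-voom. Hdac5, a class IIa HDAC that represses MEF2 target genes in muscle, had 82.3, 63.6, 70.4 and 64.1 CPM in the ITF2357 hearts and 96.4, 83.7, 84.6 and 82.7 CPM in the Sham hearts (log2 fold change -0.31 ± 0.09, adjusted p = 0.0876), and passed without ITF2357 replicate 1, the treated heart nearest to the Sham level (adjusted p = 0.0286). Hdac9, of the same class, had 33.1, 16.2, 24.8 and 17.99 CPM in the ITF2357 hearts and 37.7, 26.1, 33.1 and 34.8 CPM in the Sham hearts (log2 fold change -0.51 ± 0.22, adjusted p = 0.209). Hdac1, Hdac2 and Hdac3, the nuclear class I enzymes, had log2 fold changes of -0.03, 0.03 and -0.003. Of 15 genes often raised by HDAC inhibitors, a list composed with earlier results of these data known and so no independent evidence, 2 rose: Ndrg4, described above, and Hexim1, an inhibitor of the transcription elongation factor P-TEFb, with 12.3, 12.8, 10.4 and 11.1 CPM in the ITF2357 hearts and 7.96, 8.51, 7.36 and 7.62 CPM in the Sham hearts (log2 fold change 0.57 ± 0.10, adjusted p = 0.0281, 0.0945 without Sham replicate 4). The cell cycle inhibitor gene Cdkn1a and the linker histone gene H1f0, both of this list, had log2 fold changes of -0.22 and -0.06 with adjusted p values of 0.77 and 0.81. Calls were 0 of 22 among sirtuins and acetyltransferases, of which 4 had an unadjusted p under 0.05 and 1 each was called by DESeq2 and limma-voom.

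Of 26 genes of angiogenesis and endothelial signalling, Mdk rose and Apln and Notch1 fell (3.85% and 7.69%, against 1.52% and 1.4% of all genes). Of 24 chemokines and cytokines Il33 rose and Ccl24 fell (4.17% each). Sema3g, an endothelial semaphorin, had 26.3, 33.9, 29.8 and 27.5 CPM in the ITF2357 hearts and 20.5, 18.9, 19.4 and 16.8 CPM in the Sham hearts (log2 fold change 0.64 ± 0.10, adjusted p = 0.0159, 0.0723 without Sham replicate 2). Notch1, a receptor of vessel patterning, fell by 0.46 ± 0.11 (adjusted p = 0.0489), and Tuba1a, an alpha tubulin, fell by 0.58 ± 0.12 (adjusted p = 0.0389). Among 18 complement and acute phase genes 2 rose (11.1%, against 1.52% of all genes), 1 of them Lbp, described above. Tsc22d3, the glucocorticoid-induced leucine zipper, was the only call of 23 corticoid receptor and target genes, with 119, 159, 148 and 145 CPM in the ITF2357 hearts and 110.0, 90.5, 113 and 82.9 CPM in the Sham hearts (log2 fold change 0.53 ± 0.12, adjusted p = 0.0456, 0.161 in the fit of all 12 libraries). Notch1, Tuba1a and Tsc22d3 reached adjusted p values of 0.133, 0.113 and 0.135 without Sham replicate 2. Calls were 0 of 21 for the interferon response, 0 of 9 for MHC class II, 0 of 24 for heat shock and chaperones, 0 of 19 for the unfolded protein response and 0 of 20 for the core clock. At an unadjusted p under 0.05 these held 2, 0, 0, 3 and 3 higher genes and 0, 0, 8, 0 and 4 lower genes (12.1% and 10.9% of all genes). DESeq2 called 0, 0, 3, 1 and 6 genes of these lists and limma-voom 0, 0, 2, 0 and 6.

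Immediate early genes, which are switched on quickly by many stimuli, had a median of -0.57 with 22 of 25 below 0 and 0 called (3 at an unadjusted p under 0.05, 1 by DESeq2 and 2 by limma-voom). Atf3, a stress-induced transcription factor, had 9.32, 19.9, 23.3 and 40.6 CPM in the ITF2357 hearts and 187, 78.05, 126 and 59.9 CPM in the Sham hearts. All treated hearts were below all Sham hearts, but the spread was wide and the difference of -2.28 ± 0.54 did not pass (adjusted p = 0.0705). The summed level of this list ran from 421 to 2948 CPM in the treated hearts and from 1249 to 3738 CPM in the Sham hearts. Arntl, the clock activator BMAL1, had 7.4, 2.27, 3.33 and 3.22 CPM in the ITF2357 hearts and 16.7, 12.5, 6.69 and 19.7 CPM in the Sham hearts (log2 fold change -1.78 ± 0.44, adjusted p = 0.0667).

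**Figure D4:**
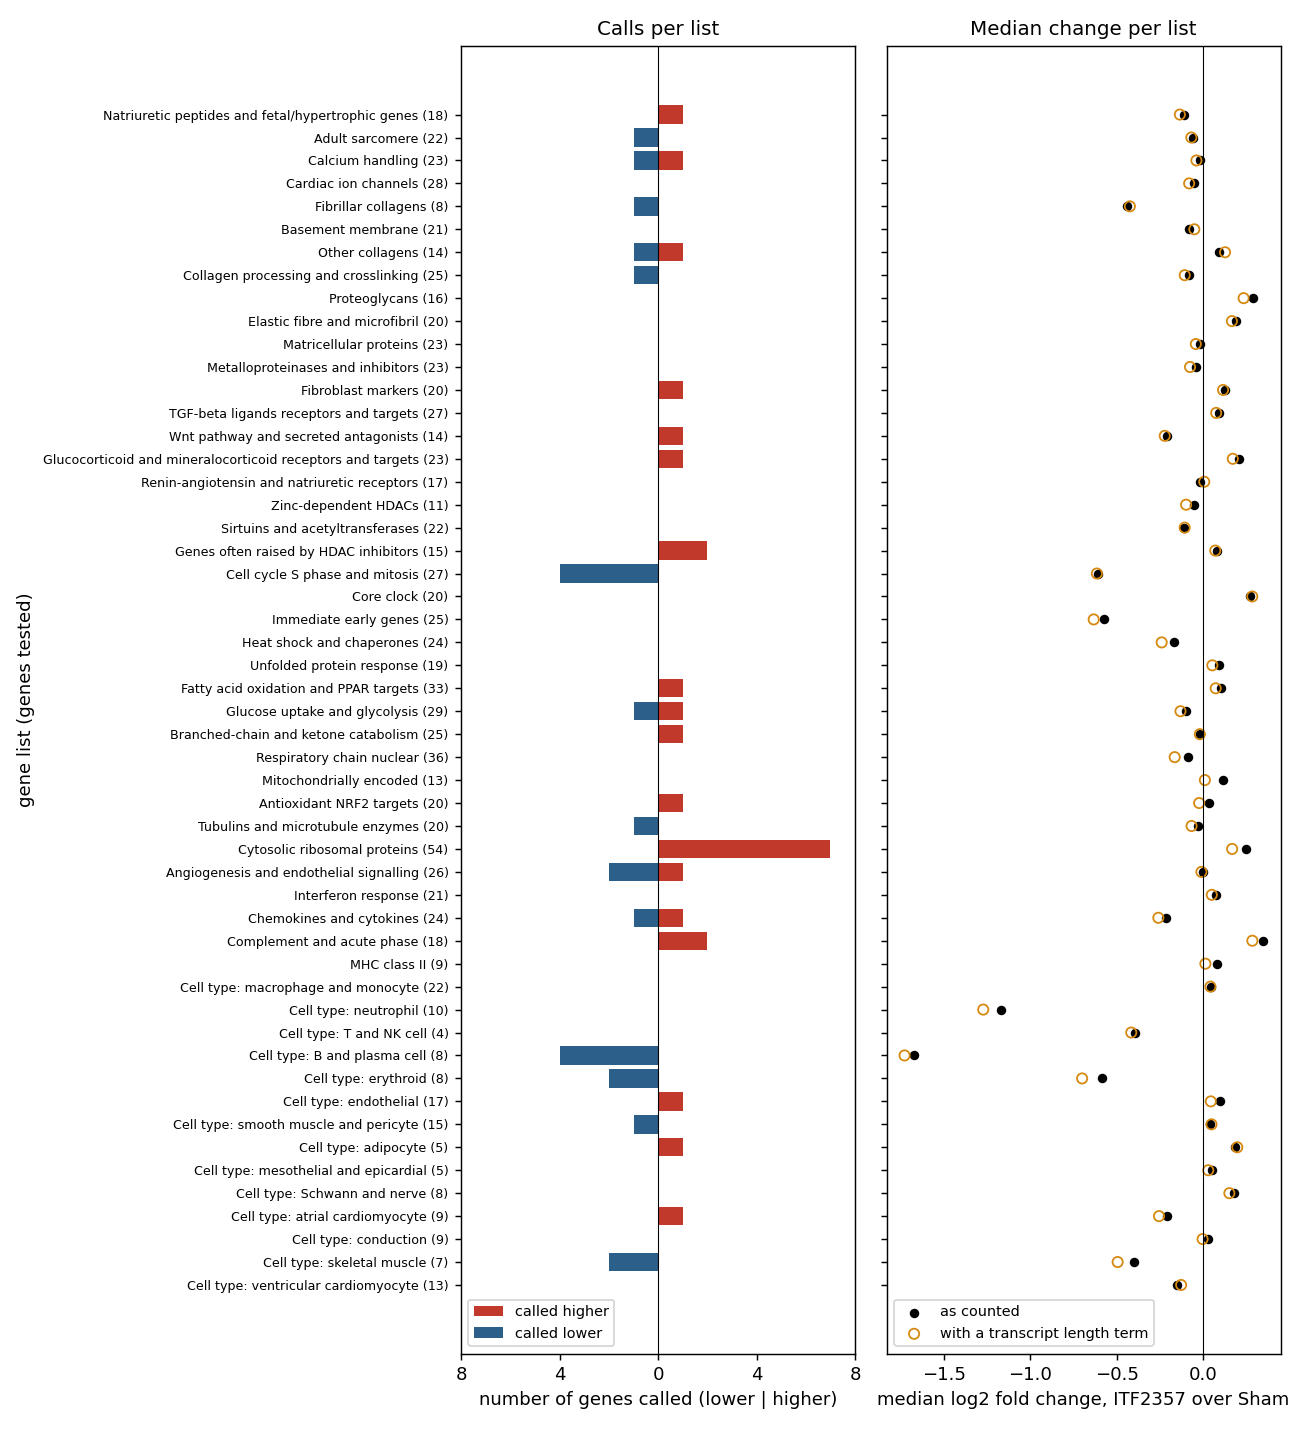
Left, number of genes called higher (red) or lower (blue) in each of 52 gene lists (vertical axis, genes tested in brackets). Right, the median log2 fold change of each list as counted and with a transcript length term. Cell cycle and B cell lists show 4 falls each and ribosomal proteins 7 rises.

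The UNX/DOCA vehicle hearts were not used in these tests, and their levels are given beside some of the called genes, on CPM scaled over all 12 libraries. A comparison of ITF2357 with vehicle shares the ITF2357 hearts with the comparison above, and one of vehicle with Sham shares the Sham hearts. The adjusted p values in this and the next paragraph are from edgeR's quasi-likelihood fit of all 12 libraries. Genes for these paragraphs were chosen after their values were seen. In Ndrg4 the vehicle hearts stood at 71.9, 60.8, 57.1 and 62.4 CPM, at the Sham level (ITF2357 minus vehicle 1.38 ± 0.13, adjusted p = 0.00104). Fbxo44 stood at 0.439, 0.452, 0.623 and 0.647 CPM (2.01 ± 0.21, adjusted p = 0.00134) and Tmem35a at 1.86, 2.46, 2.04 and 2.19 CPM (1.82 ± 0.18, adjusted p = 0.00104). In all 3 genes every treated heart was above every heart of both other groups. Top2a had 1.82, 5.82, 1.95 and 4.64 CPM in the vehicle hearts, and again all treated hearts were lower (-2.67 ± 0.44, adjusted p = 0.0204). Casq1 had 24.2, 22.6, 17.4 and 26.1 CPM (-1.20 ± 0.18, adjusted p = 0.0196), Ighd 2.29, 0.517, 1.12 and 1.58 CPM (-3.03 ± 0.47, adjusted p = 0.0196) and Ccnb2 0.641, 0.937, 0.706 and 0.611 CPM (-1.90 ± 0.27, adjusted p = 0.011). Col6a2 had its highest mean in the vehicle hearts, at 86.8, 65.998, 109.8 and 66.4 CPM (ITF2357 minus vehicle -0.79 ± 0.15, adjusted p = 0.0349). Vehicle replicates 2 and 4 lay within the Sham range of 57.8 to 66.5 CPM. The vehicle minus Sham difference of Col6a2 was 0.39 ± 0.15, adjusted p = 0.229.

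Other genes had vehicle levels on the ITF2357 side. Cysltr1 had 5.67, 7.11, 8.48 and 8.74 CPM in the vehicle hearts (vehicle minus Sham 1.52 ± 0.23, adjusted p = 0.0649), and ITF2357 and vehicle means were 7.52 and 7.5 CPM. Itpr2 had 25.1, 27.8, 24.1 and 29.8 CPM, below all Sham hearts (vehicle minus Sham -0.59 ± 0.09, adjusted p = 0.0649). Il33 had 2.94, 9.15, 27.4 and 20.9 CPM and Lbp 3.71, 7.37, 28.6 and 12.01 CPM, with a wide spread between the vehicle hearts (vehicle minus Sham 2.64 ± 0.57, adjusted p = 0.0998 for Il33 and 2.03 ± 0.51, adjusted p = 0.123 for Lbp). In this fit ITF2357 minus Sham had an adjusted p of 0.109 for Il33 and 0.128 for Lbp, and neither passed. Ttn had 5312, 6165, 3021 and 5567 CPM, and its low vehicle value came from replicate 3. Nppa had 309.8, 222, 276 and 325 CPM, between the Sham mean of 114 and the ITF2357 mean of 563 CPM (ITF2357 minus vehicle 0.99 ± 0.38, adjusted p = 0.201). Ankrd1 had 1123, 1267, 1439.7 and 1474 CPM (ITF2357 minus vehicle 0.29 ± 0.17, adjusted p = 0.385). In these 7 genes ITF2357 minus vehicle did not pass, with adjusted p values from 0.201 for Nppa to 0.993 for Cysltr1, which does not show that the levels were alike.

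**Figure D5:**
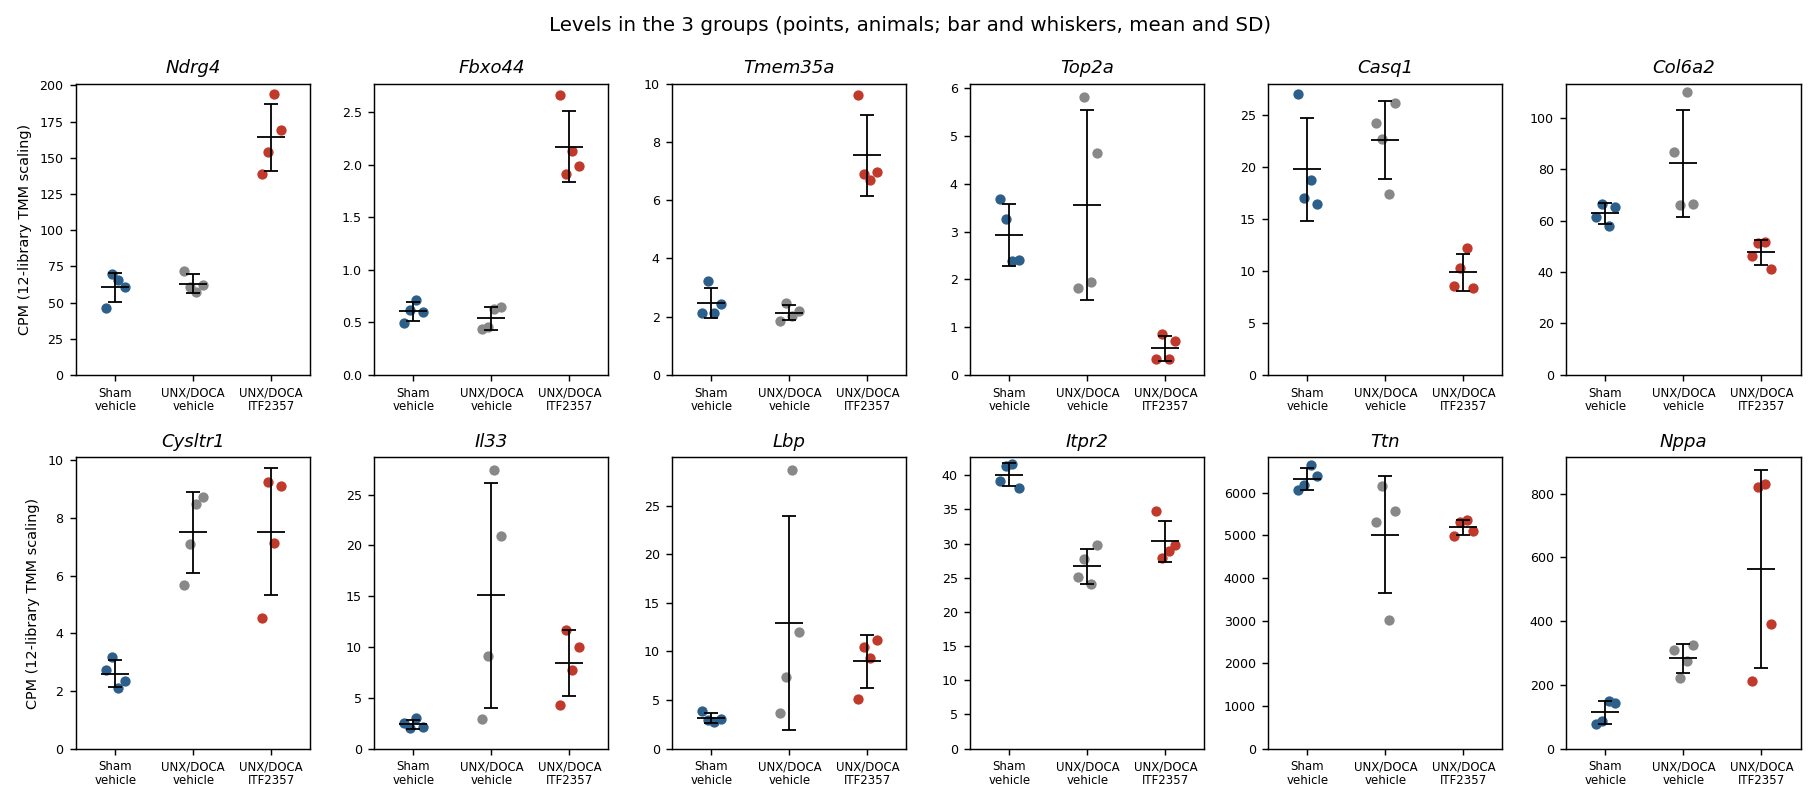
CPM (vertical axis, from 0) of 12 genes in the Sham hearts and both UNX/DOCA groups, 4 points per group with mean and SD. Ndrg4, Fbxo44, Tmem35a, Top2a and Casq1 set the ITF2357 hearts apart from both other groups, while Cysltr1 and Itpr2 set the Sham hearts apart from both UNX/DOCA groups.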

How the data were processed

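Raw counts per Ensembl gene were deposited by the authors without normalization. The genome build was mm39, the aligner STAR 2.7.10b and the quality check FastQC 0.11.9, per the submitters' processing notes. Per the labels' protocols, libraries were directional and read in pairs of 150 bp. The sources used here do not give the counting tool, its strand setting or the annotation release, so antisense or overlapping genes cannot be told apart. Symbols came from a GRCm38 annotation by identifier, and 15414 of the 16270 tested genes have one. Promoters came from RefSeq GRCm38.p6 by symbol, and mm39 positions were not used.

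The 8 libraries were fitted in edgeR 4.0.16 (R 4.3.3): filterByExpr with a minimum count of 10, TMM scaling, robust quasi-likelihood F tests with 6 residual degrees of freedom, and Benjamini-Hochberg adjustment over all tested genes at a threshold of 0.05. The common biological coefficient of variation was 0.161. Standard errors are the log2 fold change over the square root of F. Replicates are different animals, and their counts varied 11.2 to 34.3 times more than counting error (chi-square per degree of freedom).

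The comparison, the 52 gene lists and the settings were chosen with earlier results of these data known. The rule named the 15 largest changes each way among called genes of at least 1 CPM without overlap, 10 cardiac and matrix genes always, and up to 4 genes with the smallest p per list, of which the text uses fewer. A few members of the lists are counted but not reported here by name. Genes kept in every fit with a library left out, some list members, and the genes compared with vehicle hearts were chosen after their values were seen. Alternatives were RLE, upper-quartile and library-total scaling, no filter, 1 CPM in 4 libraries, DESeq2 1.42.0, limma 3.58.1 voom with sample weights, all 12 libraries, glmTreat against a 1.2-fold change, a replicate block, each library left out and, added after the data were seen, a transcript length term.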

Additional observations from a re-analysis of the deposited data

Results flagged for a closer look

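In each of 100 genes named above, the highest and lowest of the 4 animals of a group were compared with the rest of their group by Dixon's test at the 95% level. Over the 200 groups of values tested, 13 held an animal apart from the others, and chance alone flags about 1 in 20 groups. Among called genes, Tmem35a had 9.58 CPM in UNX/DOCA ITF2357 replicate 1 against 6.67 to 6.93 in the other 3. Dcakd had 19.3 CPM in UNX/DOCA ITF2357 replicate 4 against 21.4 to 21.8 in the other 3. Micall1 had 45.04 CPM in Sham vehicle replicate 3 against 54.9 to 55.4 in the other 3. For Atcay the value was 14.97 CPM in Sham vehicle replicate 1 against 4.62 to 4.99 in the other 3. Zp2 had 0.147 CPM in UNX/DOCA ITF2357 replicate 1 against 0.371 to 0.425 in the other 3. Serpinh1 had 135 CPM in Sham vehicle replicate 3 against 193 to 200.2 in the other 3. For Fabp3 it was 2563 CPM in Sham vehicle replicate 3 against 2231 to 2250.0 in the other 3. Cidea had 20.99 CPM in UNX/DOCA ITF2357 replicate 1 against 23.97 to 24.3 in the other 3. Rps27a had 158 CPM in UNX/DOCA ITF2357 replicate 4 against 142 to 144 in the other 3. Among genes that were not called, Col6a1 had 53.4 CPM in Sham vehicle replicate 3 against 61.6 to 63.4 in the other 3. Postn had 65.1 CPM in Sham vehicle replicate 4 against 27.8 to 31.6 in the other 3. Fn1 had 58.2 CPM in UNX/DOCA ITF2357 replicate 2 against 38.7 to 40.6 in the other 3. Hdac5 had 96.4 CPM in Sham vehicle replicate 1 against 82.7 to 84.6 in the other 3.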

How the results depend on the processing

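The count of 475 calls (248 higher, 227 lower) was within 1.5 times under RLE scaling, upper-quartile scaling (149 lower, past that limit), a filter of 1 CPM and the transcript length term. It became 248 with library totals (76 lower), 1844 without a filter (786 higher, 1058 lower), 1474 with DESeq2 (737 and 737), 1151 with voom (614 and 537), 298 in all 12 libraries (155 and 143) and 35 against a 1.2-fold change (23 and 12). With 1 library left out the count ran from 19 to 690, higher calls from 14 to 318 and lower calls from 5 to 372, and the cause was not tested. The 475 calls included 456 called by DESeq2, 471 by voom and 260 in the 12-library fit. Same-numbered animals correlated between -0.18 and 0.25, and with a replicate block 260 genes were called (129 higher, 131 lower). So few correlations cannot settle whether the numbers pair animals, and the main fit did not pair them. The mitochondrial share differed by 0.179 to 1.27 percentage points with a library left out (0.701 with all). Of the 100 named genes, Fn1 alone changed sign, around 0: -0.00623 with RLE scaling, -0.0174 without a filter, -0.00651 with DESeq2, -0.0610 with voom, -7.5e-05 in all 12 libraries, -0.0123 with the replicate block and -0.160 to 0.0824 with a library left out. Genes with few counts, such as Hapln4 or Birc5, have the widest errors.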
